A study of Mus musculus with 45 samples.

Results

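Dense clusters of REV-ERBα binding sites in mouse liver were described from the deposited peak list of zeitgeber time 10 (ZT10). The summits of this list were ordered along each chromosome, neighbours no more than 12.5 kb apart were joined into a chain, and every chain of 6 or more summits was kept. This gave 354 chains that hold 2505 of the 27929 ZT10 peaks (8.97%). The members were thus chosen by the ZT10 summit positions, so the size, spacing, span and fold of the chains are given as descriptions without a test.

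Chromatin immunoprecipitation with sequencing (ChIP-seq) was carried out with anti-HA beads on livers of REV-ERBa3HA/3HA mice, in which the endogenous protein carries an HA epitope tag. Livers were collected at ZT10 (4 samples) and at ZT22 (4 samples), hours of the light-dark cycle counted from lights on, and no AAV vector was given. Each time has 1 list of peaks from the pooled samples, so no value here has a spread between animals, and the series' 37 other samples, in its 18 groups of 45 samples in all, were not analysed here. The anti-HA sample of liver without the tag is among those, so the signal that does not depend on the tag was not measured at the chains. The age, sex and strain of the mice are not given in the sources used here.

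REV-ERBα, encoded by Nr1d1, is a nuclear receptor that binds heme and represses transcription by bringing the NCOR1 and HDAC3 corepressor complex to DNA. It binds as a monomer to a nuclear receptor half-site flanked by A and T bases, or as a pair to a direct repeat of the site, and it can also reach DNA through other liver factors. In liver its level peaks in the day, and the genes it represses include the clock activator gene Arntl and many genes of lipid metabolism.

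The 250 bases ahead of the RefSeq start (GRCm38.p6) are shown for 8 genes whose promoters lay under a member peak. Nr1d1, Ciart and Cish are examples from the 39 chains whose strongest summit lay within 1 kb of a start. The other 5 are all member promoters whose 250 bases hold TAGGTCA, the half-site AGGTCA preceded by T, on either strand. Capitals mark a match to AGGTCA or TAGGTCA, which reads TGACCT or TGACCTA where it lies on the other strand, and each run is written 5′ to 3′ along the strand of its gene.
Nr1d1, chr11:98775378-98775627, minus strand: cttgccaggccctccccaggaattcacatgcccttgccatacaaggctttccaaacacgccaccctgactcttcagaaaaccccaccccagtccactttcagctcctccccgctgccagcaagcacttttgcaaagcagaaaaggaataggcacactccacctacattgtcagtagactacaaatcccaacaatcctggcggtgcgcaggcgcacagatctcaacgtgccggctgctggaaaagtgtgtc
Ciart, chr3:95882229-95882478, minus strand: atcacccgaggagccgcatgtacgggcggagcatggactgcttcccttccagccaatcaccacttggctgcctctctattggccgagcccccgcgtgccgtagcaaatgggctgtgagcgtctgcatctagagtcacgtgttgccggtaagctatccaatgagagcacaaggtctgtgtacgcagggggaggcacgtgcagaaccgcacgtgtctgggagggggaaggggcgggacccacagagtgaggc
Cish, chr9:107296409-107296658, plus strand: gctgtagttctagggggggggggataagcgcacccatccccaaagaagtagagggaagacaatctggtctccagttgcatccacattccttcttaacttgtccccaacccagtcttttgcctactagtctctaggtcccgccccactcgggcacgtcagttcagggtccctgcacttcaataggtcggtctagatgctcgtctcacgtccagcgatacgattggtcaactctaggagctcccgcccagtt
Aass, chr6:23132987-23133236, minus strand: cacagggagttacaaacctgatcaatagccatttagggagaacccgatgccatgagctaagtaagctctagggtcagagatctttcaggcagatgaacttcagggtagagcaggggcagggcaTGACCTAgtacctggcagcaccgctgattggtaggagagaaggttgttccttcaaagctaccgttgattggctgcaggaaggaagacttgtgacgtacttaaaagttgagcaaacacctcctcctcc
Mpc1, chr17:8284204-8284453, plus strand: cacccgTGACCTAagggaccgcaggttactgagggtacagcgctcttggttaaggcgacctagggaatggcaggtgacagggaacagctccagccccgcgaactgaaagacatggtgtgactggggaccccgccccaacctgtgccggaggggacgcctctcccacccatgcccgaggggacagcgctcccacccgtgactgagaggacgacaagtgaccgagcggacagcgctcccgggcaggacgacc
Fabp1, chr6:71199629-71199878, plus strand: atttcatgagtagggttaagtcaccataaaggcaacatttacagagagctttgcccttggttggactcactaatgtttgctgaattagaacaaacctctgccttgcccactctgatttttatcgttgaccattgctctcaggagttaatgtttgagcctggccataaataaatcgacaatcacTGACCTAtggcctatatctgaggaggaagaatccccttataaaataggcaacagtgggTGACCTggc
Mthfd1, chr12:76254982-76255231, plus strand: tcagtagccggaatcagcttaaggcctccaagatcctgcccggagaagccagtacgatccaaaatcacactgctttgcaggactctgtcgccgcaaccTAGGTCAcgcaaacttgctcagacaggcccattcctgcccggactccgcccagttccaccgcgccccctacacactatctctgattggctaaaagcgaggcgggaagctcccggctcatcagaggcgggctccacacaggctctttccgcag
Nemf, chr12:69357177-69357426, minus strand: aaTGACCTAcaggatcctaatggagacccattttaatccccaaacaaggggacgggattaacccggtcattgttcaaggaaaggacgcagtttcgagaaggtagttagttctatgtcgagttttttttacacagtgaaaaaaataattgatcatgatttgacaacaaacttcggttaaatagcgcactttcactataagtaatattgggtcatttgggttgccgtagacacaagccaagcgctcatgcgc

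Member peaks over these promoters had folds, the authors' measure of the signal at a summit relative to a local background, of 35.9 at Nr1d1, 24.9 at Aass, 19.9 at Ciart and 19.2 at Cish. At the other 4 they were 16.7 at Mpc1, 15.9 at Fabp1, 9.34 at Mthfd1 and 4.79 at Nemf. A fold belongs to the summit and not to the bases shown. At Fabp1 the summit lay 9419 bp from the start, in a peak 19874 bp wide. Counted from the first base shown, TAGGTCA or its reverse begins at base 124 at Aass, 7 at Mpc1, 184 at Fabp1, 99 at Mthfd1 and 3 at Nemf. The runs of Nr1d1, Ciart and Cish hold no match to these letters. Aass encodes the first enzyme of lysine breakdown, Mpc1 a subunit of the mitochondrial pyruvate carrier, Fabp1 the liver fatty acid binding protein and Mthfd1 an enzyme of folate metabolism.

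Matches to these letters were counted in promoter windows under member peaks and under other peaks. In windows from 250 bases before to 50 bases after a coding start, AGGTCA stood on either strand in 68 of 427 windows under a member peak (15.9%, exact Clopper-Pearson interval at 95% 12.6 to 19.7). The interval includes the shares of 12.7% in the 7646 windows under other ZT10 peaks, 15.8% in the 12972 under no ZT10 peak and 14.6% in all 21045. With windows taken by a member summit within 500 bp instead, 50 of 288 held AGGTCA (17.4%, interval 13.2 to 22.2), and that interval lies above the 12.6% of the 5984 windows of other ZT10 peaks and includes the 14.6% of all windows. TAGGTCA, whose matches are also matches to AGGTCA, stood in 6 of the 427 member windows (1.41%, interval 0.517 to 3.03) and in 2.35% of all windows. The 427 windows belong to 346 genes, so they are not all independent, as the intervals assume. The direct repeat AGGTCANNAGGTCA stood in 0 of the 21045 windows. These windows were 58.3% G and C under member peaks, 61.6% under other peaks and 56.4% over all. The counts cover promoters only, since no genome sequence was used for the summits that lie elsewhere.

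The chains were spread over 20 chromosomes and were mostly short. There were 177 chains of 6 summits, 85 of 7, 40 of 8, 22 of 9, 13 of 10, 9 of 11, 4 of 12, 3 of 13 and 1 of 14. Just outside the limit were 292 chains of 5, and 10910 peaks stood alone. The median span from the first to the last summit was 35.4 kb, with a range of 10.8 to 96.6 kb. Chains of 6 had a median span of 30.6 kb and chains of 5 one of 25.1 kb. Inside chains, neighbouring summits were 301 to 12497 bp apart with a median of 5976 bp, and the nearest summit outside any chain lay 12525 bp away. All chains together spanned 13.3 Mb, or 0.508% of the 2612 Mb between the first and last annotated gene of each chromosome.

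**Figure D1:**
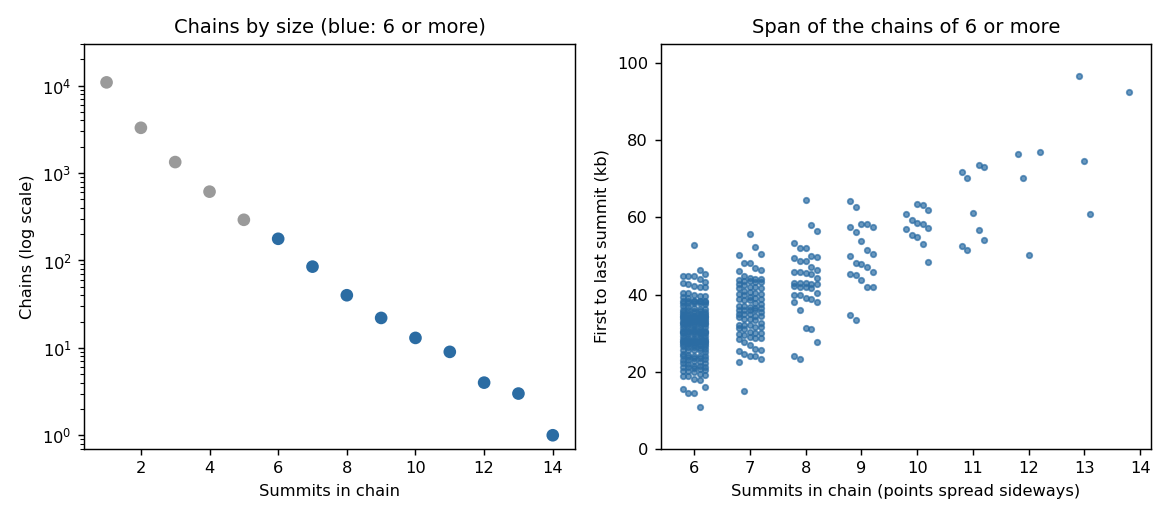
Left, number of chains (log scale) against the number of summits in the chain, with grey points for chains below the limit and blue points for the 354 chains of 6 or more. Right, span of each of these 354 chains in kb against its number of summits, from 10.8 kb at 6 summits to 96.6 kb at 13.

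Peaks filled a large part of a chain. The authors' peak intervals covered a median of 48.2% of the stretch from the start of a chain's first peak to the end of its last. This share ran from 17.3% at Wnt5b and Fbxl14 to 92.8% at H6pd, and 0 member peaks overlapped the next. Member peaks had a median width of 2203 bp and the others 1633 bp, and 95 members (3.79%) were 8000 bp or wider, against 2.46% of the others. The widest, of 28442 bp, closed the shortest chain, 6 summits in 10.8 kb at H6pd, an enzyme gene of the endoplasmic reticulum that makes NADPH. Its fold was 21.1, and the 5 narrower peaks before it had folds of 4.05 to 4.97.

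Fold in the chains was close to that elsewhere. The median fold of the 2505 members was 7.41, with a range of 4.01 to 70.8, and that of the other peaks was 6.76. Mean log2 fold was 2.99 ± 0.74 (SD over the 2505 peaks) in chains and 2.91 ± 0.71 outside. A fold of 10 or more was reached by 795 members (31.7%), where it was reached by 27% of all ZT10 peaks. A fold of 20 or more was reached by 135 members (5.39%), beside 4.72% of all peaks, and a fold of 30 or more by 17 (0.679%), beside 0.87%. Chain members made up 2 of the 15, 9 of the 100 and 41 of the 500 peaks of highest fold. The summits of members held 83 to 965 fragments with a median of 159, counted where the local background was at its lowest level (86.5% of members).

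Strong and weak summits stood side by side in the same chain. The ratio of the highest to the lowest fold in a chain had a median of 3.52 and a range of 1.50 to 15.5. It was under 2 in 22 chains, between 2 and 4 in 196 and at least 4 in 136, of which 8 reached 8. In chains of 6 the median ratio was 3.43, and in the chains of 5 just outside the limit 2.92. A ratio of highest to lowest tends to rise with the number of summits, so these values do not show that chains of 6 are more uneven. The list has no peak with a fold below 4, and the lowest fold of a chain had a median of 4.33 and the highest one of 15.8.

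Fold varied about as much inside a chain as over all members. Within a chain the SD of log2 fold had a median of 0.68, close to the 0.74 of all members. Differences between chains made up 3.80% of the variance of log2 fold, and Pearson's r between neighbouring summits was 0.04 over 2151 pairs, which share their pool and background. The strongest summit stood at an end of 115 chains (32.5%), while ends make up 29.3% of summits on average. It was 1.30 times the next strongest in a median chain and at least 2 times the next in 37 chains (10.5%). No summit reached a fold of 10 in 31 chains, exactly 1 did in 87 and at least 4 did in 60, and in 23 chains every summit had a fold of 6 or more.

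**Figure D2:**
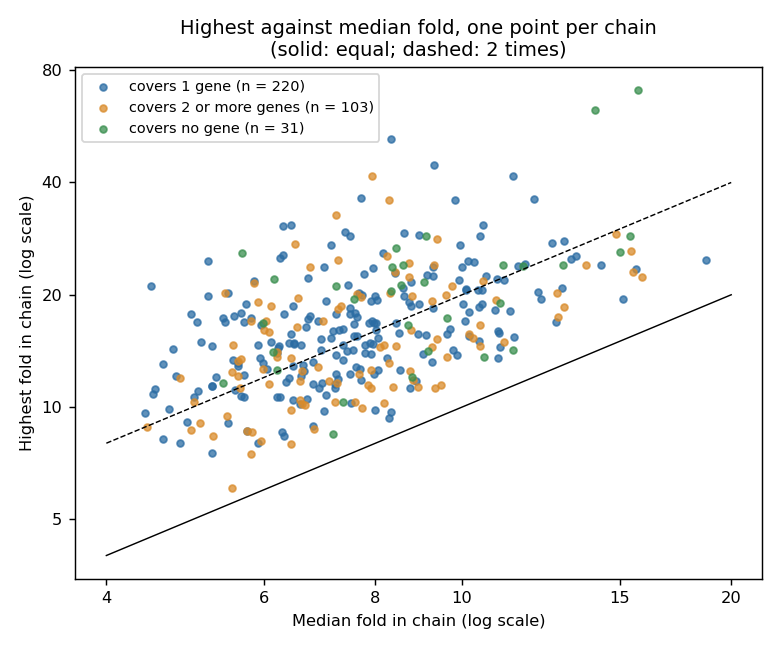
Highest fold of each of the 354 chains against its median fold, both on log scales, coloured by the number of protein-coding genes the chain covers, with a solid line where they are equal and a dashed line where the highest is 2 times the median. The pair of green points at the top, with highest folds of 62.7 and 70.8, are the chains beside Irs2.

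The highest folds of all chains were beside Irs2, which encodes an adaptor protein of the insulin receptor. A chain of 11 summits ran over 56.9 kb on chromosome 8 (mm10) from 10854804 to 10911668, and its folds were 28.7, 8.46, 62.7, 42.7, 5.52, 5.0, 14.1, 4.05, 30.8, 10.2 and 14.1 in order. A chain of 8 summits followed from 10928642 to 10978558, with folds of 18.2, 70.8, 7.87, 13.2, 5.94, 32.2, 29.8 and 6.35. The chains were 16974 bp apart and lay 73013 and 6123 bp from the annotated end of Irs2 nearest to them, so 19 summits stood on 1 side of this gene. Their ratios of highest to lowest fold, 15.5 and 11.9, were among the 3 largest. They covered no protein-coding gene, and the chain of 11 covered 5 noncoding ones.

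**Figure D3:**
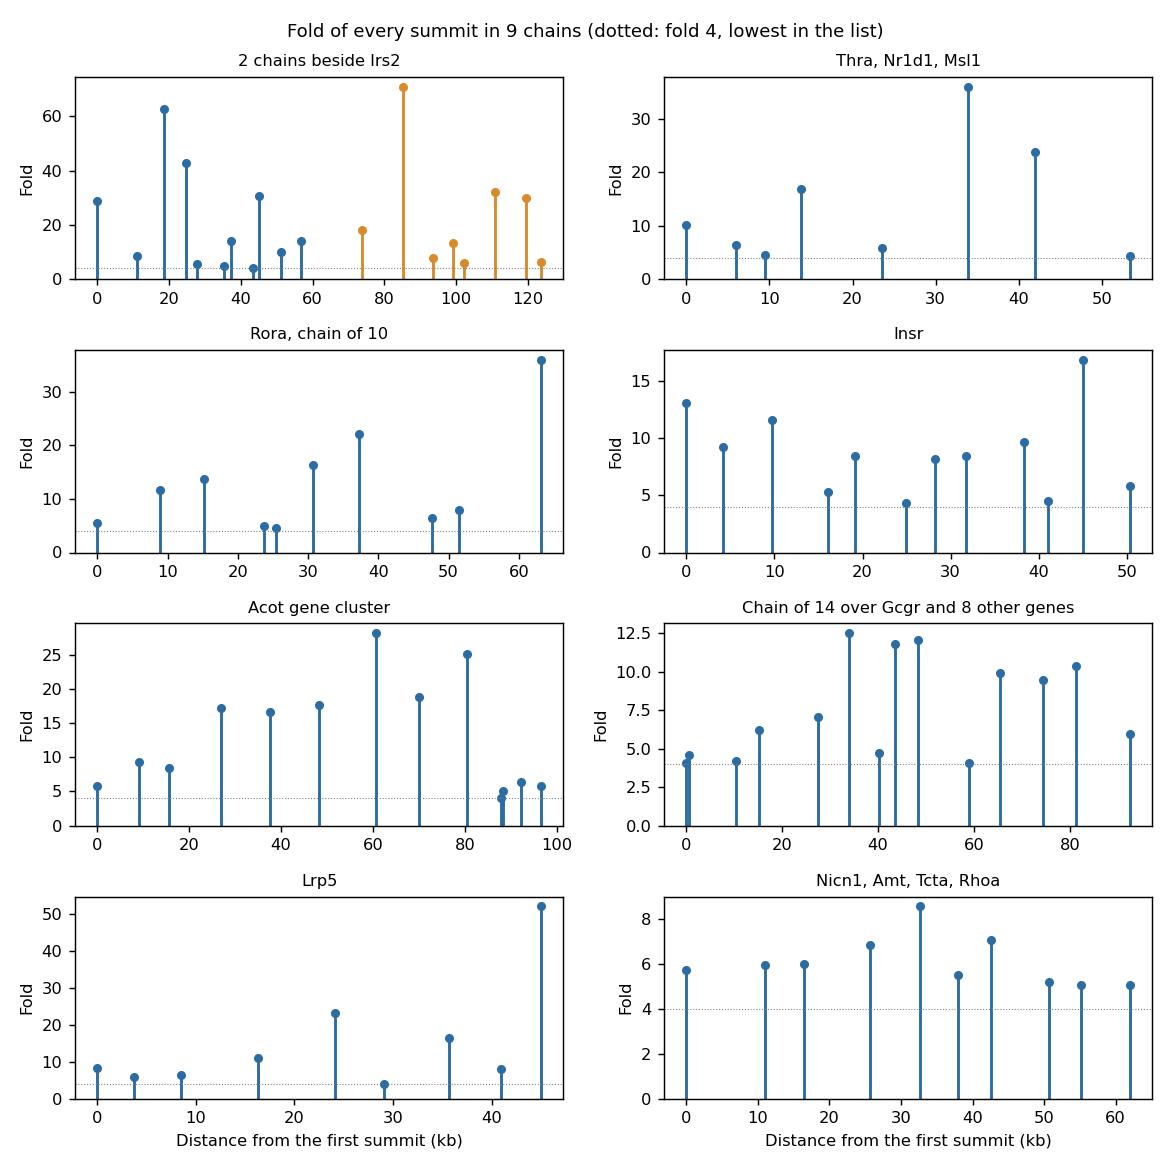
Fold of every summit (vertical axis, linear from 0, scaled for each panel) against its distance in kb from the first summit for 9 chains in 8 panels. The dotted line marks a fold of 4, and blue and orange in the first panel are the chains of 11 and 8 summits beside Irs2. Strong and weak summits stand side by side in most panels, and the chain over Nicn1, Amt, Tcta and Rhoa stays between 5.06 and 8.55.

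Other chains of high fold were led by 1 or 2 summits. At Lrp5, a coreceptor gene of WNT signalling, 9 summits ran over 45.0 kb, and the last of them had a fold of 52.2 where the others had 4.14 to 23.2. At Vps13d, whose product moves lipids between organelles, 11 summits lay inside the gene, and the first had a fold of 44.5 (counting interval 41.8 to 47.4). At Scarb1, the gene of the HDL receptor, 6 summits had folds of 5.39, 27.9, 41.7, 8.14, 7.09 and 14.7. A chain of 10 over Alkbh2, Ung and Acacb reached a fold of 41.6 inside Acacb, 7725 bp from its nearest start, while the next strongest of its summits was at 10.5. That peak was 211 bp wide, against the median of 2203 bp. At Dhrs9, a retinol dehydrogenase gene, the first of 6 summits had a fold of 36.4 and the others 4.08 to 14.1. At H6pd the strongest summit was 4.25 times the next, the largest such ratio of all chains.

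The highest folds of the 8 chains of 12 or more summits ran from 10.6 to 28.7. The chain of 14 ran over 92.6 kb of chromosome 11, from 120457383 to 120550004, and covered 9 genes, among them Gcgr, the glucagon receptor, Slc25a10, a mitochondrial dicarboxylate carrier, and Hgs, an endosome protein. Its folds ran from 4.10 to 12.5, 6 of its summits lay within 1 kb of a coding start, and the strongest lay 604 bp from the start of Slc25a10. The longest chain, 13 summits over 96.6 kb of chromosome 12, covered Heatr4 and the acyl-CoA thioesterase genes Acot1 to Acot5. Its first 3 summits had folds of 5.80, 9.38 and 8.42, the 6 in the middle 16.6 to 28.2, and the last 4 had 4.10 to 6.42. Vgll4 (highest fold 13.6) and Tsc22d3 (10.6), which encode a TEAD cofactor and a glucocorticoid-induced protein, had 13 each, and the chain at Tsc22d3 was the 1 chain of the X chromosome. Chains of 12 lay in Itpr1 (14.1), a calcium channel gene, in Dlc1 (28.7), a gene of a GTPase-activating protein, in Insr (16.8) and over Cyp2d9, Cyp2d10 and Cyp2d11 (18.7). The 9 chains of 11 had highest folds of 14.3 to 62.7, the last of them beside Irs2 and the next, 44.5, in Vps13d. Others of 11 lay at Papss2 (21.2), a gene of sulfate activation, in Nfib (16.1) and from Mrpl58 to Slc16a5 (20.2).

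Some chains held summits within a narrower range of fold. In each of the 283 chains with fragment counts at both extreme summits, the counting intervals of highest and lowest fold lay apart. Both summits were picked as the extremes of 6 or more values, which favours such a gap, so this count is no test of a difference. The smallest ratio of highest to lowest fold was 1.50, at Anapc16 and Ascc1, where 7 summits had folds of 4.05 to 6.08. It was 1.58 over Adap2, Rnf135 and Rhot1, 1.62 in Dgkd and 1.75 over Strap and Dera, with 6 summits each. The 10 summits over Nicn1, Amt, Tcta and Rhoa, which include a gene of glycine breakdown, had a ratio of 1.69. Their folds were 5.71, 5.94, 5.98, 6.81, 8.55, 5.48, 7.04, 5.20, 5.06 and 5.06, and none reached 10.

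The chains covered 522 of 21631 protein-coding genes (2.41%), counting a gene when its span meets the stretch from the first to the last summit. One gene was covered by 220 chains, at least 2 genes by 103 and no gene by 31. Every summit lay inside the same gene in 104 chains. Covered genes had a median length of 22.9 kb, against 17.3 kb for all genes, and a longer gene is met by a chain more readily. Coding starts numbered 2.83 per 100 kb of chain and 0.837 per 100 kb of the genome. The most genes in a chain, 14, were histone genes on chromosome 13.

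Of 28 gene lists, 18 had a covered member, and the counts below stand beside the 2.41% of all genes. Fatty acid and triglyceride synthesis had 7 of 20 covered. Acly, which makes cytosolic acetyl-CoA, had a chain of 6 with a highest fold of 14.8, and Acaca and Acacb, the genes of the acetyl-CoA carboxylases, had chains of 6 (13.5) and 10 (41.6). The fatty acid elongase gene Elovl5 had 7 summits with folds of 11.1, 13.2, 10.4, 7.68, 24.95, 22.2 and 15.4, so 6 of 7 were at 10 or more. Elovl6, another elongase gene, had 9 summits in the gene (17.6) and a further chain of 6 ending 81335 bp away (23.99). Gpam and Dgat2, genes of the first and last steps of triglyceride synthesis, had chains of 8 (18.2) and 10 (14.7). Fatty acid oxidation and ketogenesis had 4 of 20. Among them Bdh1, a ketone body enzyme gene, had 6 summits (12.3), and Acot1 and Acot2 shared the longest chain. Cholesterol synthesis had 3 of 20, with Hmgcs1 (7 summits, 14.5), Fdft1 (7, 13.3) and Scap (7, 11.4). Lipid droplets and lipoproteins had 1 of 22, Fitm1, and bile acid synthesis and transport 1 of 16, Abcc3.

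**Figure D4:**
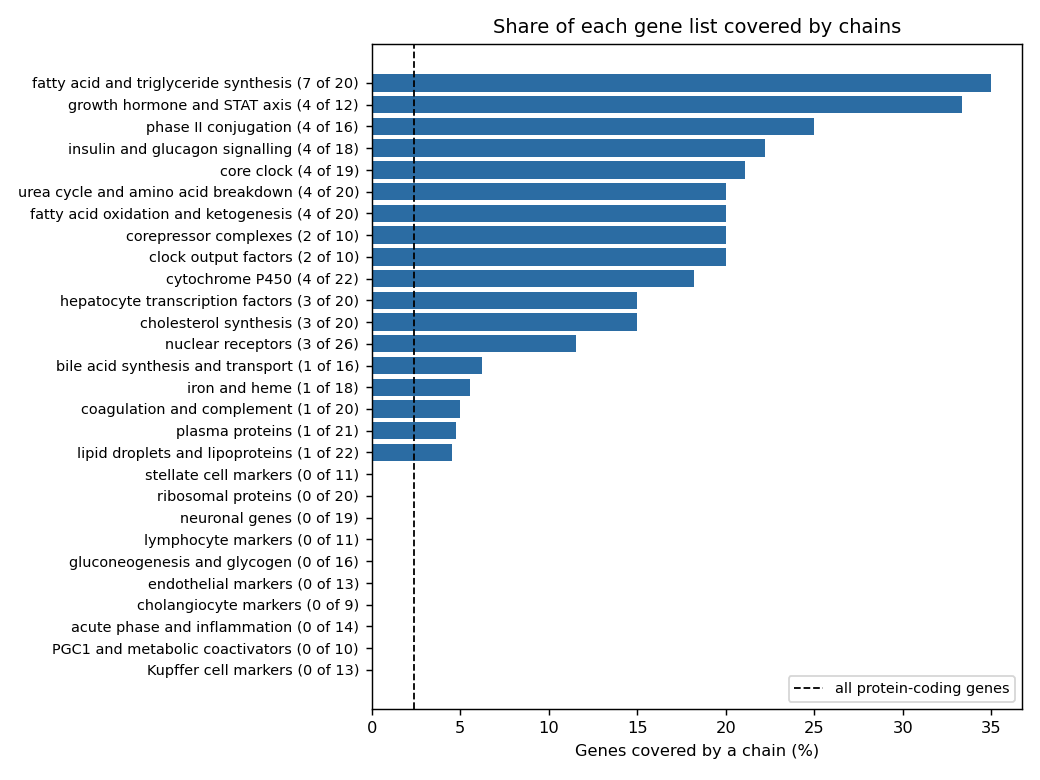
Percentage of the genes of each of 28 lists that a chain covers, as bars from 0, with the number covered and the list's size in the label, and a dashed line at the share of all protein-coding genes (2.41%). Fatty acid and triglyceride synthesis has 7 of 20, growth hormone and STAT axis 4 of 12, and 10 lists have none.

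Genes of hormone signalling were among those covered. Insulin and glucagon signalling had 4 of 18 covered. The 12 summits inside Insr, the insulin receptor gene, had folds of 13.1, 9.24, 11.5, 5.25, 8.40, 4.34, 8.14, 8.46, 9.61, 4.47, 16.8 and 5.80, with 3 at 10 or more. Pik3r1, a regulatory subunit of PI3 kinase, had 8 (highest fold 12.9), and Igf1, the gene of a growth factor that liver secretes, had 8, of which the strongest were at 20.1 and 21.97. The growth hormone and STAT axis had 4 of 12. Ghr, the growth hormone receptor gene, had 9 summits at 4.05 to 13.1, and Met, the hepatocyte growth factor receptor gene, had 6 (19.3). The feedback inhibitors of this pathway, Socs2 and Cish, had 6 each. Folds at Socs2 were 6.21, 36.1, 4.42, 17.2, 6.86 and 21.97. Folds at Cish were 5.39, 19.2, 4.74, 6.44, 12.9 and 5.11, and the strongest lay 303 bp from the start.

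Core clock genes had 4 of 19 covered. Nr1d1, the gene of REV-ERBα itself, lay with Thra and Msl1 in a chain of 8 on chromosome 11 from 98741511 to 98794934. Its folds were 10.2, 6.40, 4.47, 16.8, 5.83, 35.9, 23.8 and 4.33, and the 35.9 lay 89 bp from the start of Nr1d1. Rora, a receptor that activates through the same DNA sites, had a chain of 6 (folds 4.42 to 25.8) and a chain of 10 (4.60 to 35.9). The 2 chains are part of 33 summits inside or within 10 kb of this 735 kb gene. Ciart, a clock repressor gene, lay in a chain of 7 with folds of 9.93, 4.96, 5.80, 19.9, 4.74, 8.78 and 18.2, the strongest 545 bp from its start and the next 536 bp from that of Car14. The 6 summits at Cry2, another repressor gene, had folds of 6.58, 4.37, 8.42, 4.01, 6.86 and 17.2, and the 17.2 lay 12230 bp from the start. Among the others, the largest chain with a summit inside the gene or within 10 kb had 5 summits at Npas2 and Bhlhe40, 3 at 5 genes including Arntl, Per1 and Cry1, 2 at 4 genes and 1 at 3.

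Clock output factors had 2 of 10 covered, Klf13 (9 summits, highest fold 14.6) and Por, the electron donor of cytochromes P450 (6 summits, 21.6). Corepressor complexes had 2 of 10. Among them Tbl1xr1, a gene of the NCOR1 complex, had 6 summits with folds of 4.88, 4.41, 4.33, 20.8, 12.3 and 13.5, and the strongest, at 20.8, lay 801 bp from its start. Nuclear receptors had 3 of 26, Thra, Esr1 (6 summits, 22.4) and Ppara, the receptor for fatty acids, where 6 summits had folds of 4.05 to 6.81 and the seventh 24.7. Hepatocyte transcription factors had 3 of 20, among them Nfib and Prox1 (7 summits, 30.6).

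Drug and amino acid metabolism had covered genes too. Cytochrome P450 had 4 of 22, with Cyp1a2 (7 summits, highest fold 13.1), Cyp2a4 (6, 20.2), Cyp2d9 and Cyp2d10. Phase II conjugation had 4 of 16, with Ugt2b1 (8, 12.2), Gstm3 (6, 23.1), Gstt1 (6, 14.99) and Nat8 (6, 23.5). Urea cycle and amino acid breakdown had 4 of 20, with Asl (7, 20.1), Gls2 (6, 11.7), Tat (7, 13.8) and Hpd (6, 20.7). Coagulation and complement had 1 of 20, F5 (7, 14.9), iron and heme 1 of 18, Fth1 (6, 11.3), and plasma proteins 1 of 21. Of gluconeogenesis and glycogen 0 of 16 were covered, of acute phase genes 0 of 14, of PGC1 and metabolic coactivators 0 of 10 and of ribosomal proteins 0 of 20. The 6 lists for endothelial cells, Kupffer cells, stellate cells, lymphocytes, cholangiocytes and neurons had 0 of 76 covered. At the 2.41% of all genes, few or none would be covered in lists of these sizes, so the counts of 0 do not set them apart. Median gene length was 3.52 kb for acute phase genes, 3.74 kb for ribosomal proteins, 13.1 kb for gluconeogenesis and glycogen and 106 kb for PGC1 and coactivators. For all genes it was 17.3 kb.

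Some covered genes belong to families of similar copies, and part of their chains covered only 1 member of the family. Chains at Mup genes numbered 7 with 46 peaks, at Ugt genes 4 with 26, at Gst genes 3 with 18 and at Cyp2 genes 3 with 26, and there were 2 at histone genes with 19, 1 at Serpina genes with 11 and 1 at Acot genes with 13. At least 2 genes of the family were covered by 3 of the Mup, 3 of the Ugt, 2 of the Gst and 1 of the Cyp2 chains. The sources used here do not say how reads that match several copies were placed, so which copy is bound is uncertain, and these families were picked after the covered genes were seen.

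The 31 chains without a protein-coding gene had a median highest fold of 21.1, above the 15.95 of chains over 1 gene and the 14.6 of chains over 2 or more. Noncoding genes lay in 26 of the 31. The nearest protein-coding gene was 39 bp to 479 kb away, with a median of 31.2 kb. Several of these neighbours, chosen after their values were seen, are well known in liver. A chain of 7 summits ended 122 bp from Alb, the albumin gene (highest fold 23.7). A chain of 6 ended 9419 bp from Fabp1 (24.1), and its last peak, 19874 bp wide, reached over the gene's start. Chains of 6 also lay 61818 bp from Acsl1, an acyl-CoA synthetase gene (28.8), 18220 bp from Ppp1r3c, a glycogen targeting subunit gene (25.8), and 42328 bp from Sox9, a gene of bile duct identity (24.1).

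Most chain summits lay away from coding starts. A start was within 1 kb of 268 members (11.1%), where it was for 20.7% of all ZT10 peaks and 21.6% of those outside chains. The share was 6.56% in chains over 1 gene, 23.3% over 2 or more and 1.38% where no gene was covered. No summit lay that close to a start in 169 of 340 chains, and the strongest did in 39 (11.5%). The median distance to a start went the other way, at 18584 bp for members and 21067 bp for other peaks. Chromosome 18 is not in these counts and distances. Starts were known for 17274 of the 21631 protein-coding genes, so a summit at the start of another gene can count as farther away. Inside genes lay 64.4% of members, beside 59.4% of all peaks. Members within 1 kb of a start had a median fold of 7.64 and those farther away 7.32, while outside chains the order was the other way, at 6.17 and 7.04. Both shifts appeared well below 6 summits, since the share at starts went from 27.1% for lone peaks to 13.4% in chains of 5 and 13.0% in chains of 6, and the median fold from 6.35 to 7.54 and 7.42.

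**Figure D5:**
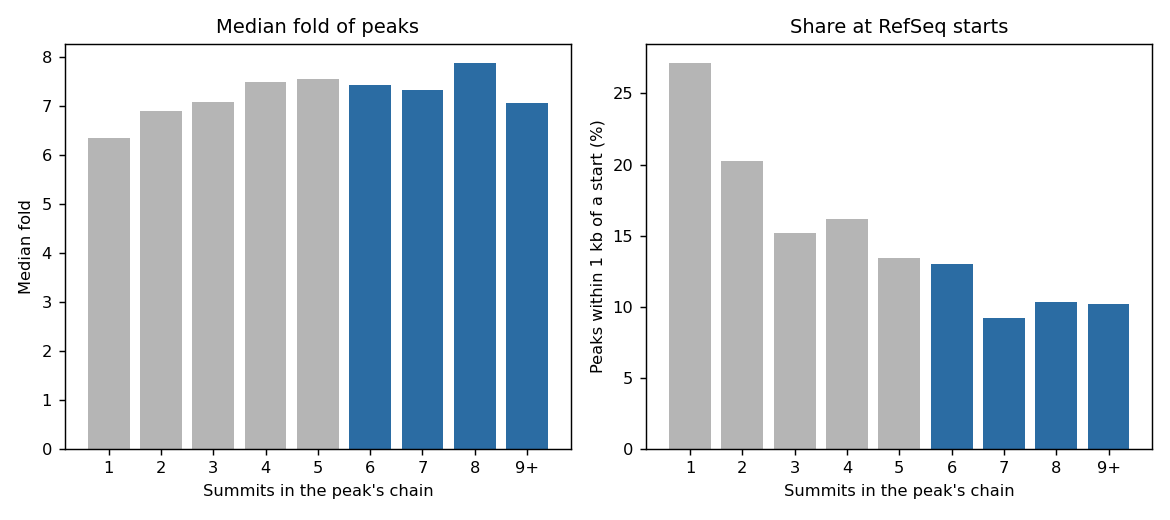
Median fold (left) and percentage of peaks within 1 kb of a RefSeq coding start (right) against the number of summits in the peak's chain, as bars from 0, grey below the limit of 6 and blue from 6 on. The fold goes from 6.35 for lone peaks to 7.06 to 7.87 in chains of 6 or more, and the share at starts from 27.1% to 9.18 to 13.0%.

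Members were most frequent on chromosomes 8 and 15, with 13.4% and 13.2% of the peaks there, and least on X, with 4.36%. On Y 0 of 9 peaks were members. Most chains stood apart from one another, and 8 pairs lay within 50 kb. Next to the pair beside Irs2, chains of 11 and 7 stood 18023 bp apart in Mtss1. Chains of 7 in Uvrag and 10 over Dgat2 and Mogat2 were 21482 bp apart.

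Chains also held 20 of 1005 annotated miRNA hairpins (1.99%). The RefSeq mature sequences of 4 well-known ones are shown with the seed, bases 2 to 8, in capitals, since their chains span the hairpin. They were chosen after their positions were seen, and their seeds differ from one another.
mmu-miR-107-3p: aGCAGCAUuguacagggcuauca
mmu-miR-21a-5p: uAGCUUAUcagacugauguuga
mmu-miR-101a-3p: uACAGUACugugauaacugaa
mmu-miR-26b-5p: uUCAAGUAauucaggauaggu

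The hairpin of miR-107 lies in Pank1, a gene of coenzyme A synthesis with a chain of 8, and the nearest summit, 858 bp from the mature 3p sequence, had the chain's highest fold of 22.5. The mature miR-21a-5p sequence, in the chain of 7 at Vmp1, was 303 bp from a summit of fold 5.25, where the chain reached 13.4. For miR-26b-5p, in the chain of 7 over Slc11a1 and Ctdsp1, the nearest summit was 992 bp away with a fold of 4.51. For miR-101a-3p, in a chain of 7 without a protein-coding gene, it was 3212 bp away with a fold of 8.10.

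The ZT22 list, which the rule did not use, held 36 peaks and 0 of them had a summit inside a chain (0%, exact Clopper-Pearson interval at 95% 0 to 9.74). A count of 0 among 36 peaks allows a share of up to 8.33% by the rule of 3 counts, which is below the 8.97% of ZT10 peaks, while the exact interval includes it. With 36 peaks the share at ZT22 was therefore not told apart from that at ZT10 by the exact interval. Several ZT22 peaks overlap the same ZT10 peak, such as that of fold 103 on chromosome 17. They are thus not all independent, as both limits assume, and the limits may be too narrow. The nearest ZT22 summit lay 31088 bp from a member, the chain at H6pd. Of the 30 ZT22 peaks that overlap a ZT10 peak, 11 overlapped a lone peak, 12 one in a chain of 2, 4 in a chain of 3, 1 in a chain of 4 and 2 in a chain of 5. ZT22 has 1 pooled list, so times were not tested against each other, and the signal at the chains at ZT22 was not measured.

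Some peak numbers between the members have no listed peak. Peak numbers rise along each chromosome up to 50041, and 22112 numbers have no listed peak. Inside chains 1499 numbers were missing, in 342 of the 354 chains, with a median of 4 a chain and 14 in the chain of 7 in Mtss1. That is 0.598 unlisted numbers for each listed peak in chains and 0.792 over the whole list. The bases are unlike, since in chains only numbers between members count, and the 2505 members form 2151 neighbouring pairs.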

How the data were processed

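Peak lists of pooled anti-HA ChIP-seq from REV-ERBa3HA/3HA livers, 1 at ZT10 and 1 at ZT22 with 4 samples each, were used. Libraries came from sonicated, doubly fixed nuclei and were tagmented with Tn5, per the labels. Tools in the submitters' processing notes, listed without role or order, are MACS2 2.1.2, BWA 0.7.17, cutadapt 2.3, Picard 2.18.12, bcl2fastq 2.17, deepTools 3.3.0 and SAMtools 1.9, on mm10. Which sample served as control and how multiply mapped reads were treated are not given in the sources used here. Fold in the authors' files is a ratio of summit signal to local background, the peak's own value. Of the deposited −log10 values, p served to find that background and q in an alternative. The deposited score column was not used.

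Chains, gene counts and ratios were computed in Python 3.11.15 with pandas 2.3.3, numpy 2.4.6 and scipy 1.17.1, and the chaining was tested on simulated summits. The lists hold no read totals, so the total depth is unknown. Fragments per summit were worked out from the fold, which moves in steps of 0.0459 where the local background is at its lowest, 4.14. Intervals from these fragments cover the counting error at the summit only, not that of the background. Genes, starts, promoters and miRNAs came from RefSeq tables of GRCm38.p6 (the assembly called mm10), with 21631 protein-coding genes. All 466 entries of the 28 gene lists matched, 1 of them by an older symbol. A gene was covered where its span met the stretch from first to last summit. Starts were known for 17274 genes and not for chromosome 18, so 340 chains and 2406 members entered the start counts.

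Named chains were the 12 with the most summits, the 5 longest, the 8 of highest fold and the 5 with the largest and the 5 with the smallest ratio of highest to lowest fold, with up to 8 genes each. All covered core clock genes and up to 5 covered genes of each other list were named too. Some results that this rule takes are not reported here. Other genes were named after their values were seen. The members, the lists and this rule were chosen with earlier results of these data known. No test was run, since the positions that chose the members come from the same pool as their folds. The alternatives were chaining at 10000 and 15000 bp, at least 5 or 8 summits, a −log10 q of at least 10, distances between peak edges, other definitions of a covered gene, of a ZT22 peak in a chain and of a promoter under a peak.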

Additional observations from a re-analysis of the deposited data

How the results depend on the processing

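The rule sets how many chains there are. Against 354 chains, 2505 peaks and 522 genes, 10000 bp between summits gave 204 chains, 1388 peaks and 247 genes, and 15000 bp gave 821 genes. At least 5 summits gave 646 chains, 3965 peaks and 871 genes, and at least 8 gave 92, 848 and 164. The 21189 peaks with a −log10 q of at least 10 gave 122 chains, 815 peaks and 188 genes, and 12.5 kb between peak edges gave 534, 3982 and 870. Counting only genes that lie whole inside a chain gave 178 genes. The median ratio of highest to lowest fold, 3.52, became 3.33 with at least 5 summits, 4.16 with at least 8 and 2.89 with the q limit, which also moved the median fold from 7.41 to 8.55. The count of 0 ZT22 peaks in chains became 2 with at least 5 summits and 3 with distances between peak edges. The other settings tried kept each of these values within 1.5 times, or within its spread. Counts for single gene lists moved in both directions. With a member summit within 10 kb of a gene end, fatty acid and triglyceride synthesis had 5 of 20. The growth hormone and STAT axis then had 2 of 12, phase II conjugation 5 of 16 and neuronal genes 1 of 19. With a member summit inside the gene, cytochrome P450 had 2 of 22. With member summits within 500 bp of the window, the share of promoters with AGGTCA was 17.4%, inside the interval of the 15.9%, but its own interval, 13.2 to 22.2, no longer included the 12.6% of windows at other ZT10 peaks. No paired analysis was possible because each time has 1 pooled list, and for the same reason no sample could be left out. The ZT10 list holds no peak below a fold of 4, so any weaker sites that would lengthen or join chains were not seen.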
